A study of Mus musculus with 21 samples.

Results

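The class I antigen presentation genes and the immunoproteasome genes were followed here through neonatal mouse hearts healing after resection of the apex. The set holds 10 of the 18762 genes in the deposited expression table, picked by symbol: B2m, H2-K1, H2-D1, H2-Q7, Psmb8, Psmb9, Psmb10, Tap1, Tapbp and Nlrc5. They were proposed with the levels of these same libraries across the 7 groups in view, so their levels and their differences between groups are a description and carry no p-value. RNA came from the heart apex of ICR mice at postnatal day 7. The apex had been removed at 1 day of age, in the controls too, and injections under the skin ran over 7 days. The control group had apical resection alone as its label, and its libraries carry NS in their titles. Whether it received an injection is not stated. The other 6 groups had resection with isoproterenol, which stimulates β-adrenergic receptors, or with 1 of 5 anti-arrhythmic drugs. Of these amiodarone acts mainly on potassium channels, metoprolol and propranolol block β-adrenergic receptors, lidocaine blocks sodium channels and ivabradine slows the pacemaker current. Each group had 3 libraries, 21 in all. Doses are not in the labels, so the drugs are set side by side and not compared with each other. Nothing in the labels ties the libraries to single animals, and the p-values given below for other genes therefore measure the spread between libraries, which may be technical.

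Class I molecules carry short peptides from inside the cell to its surface, where CD8 T cells and natural killer cells read them. The peptides are cut by the proteasome, pumped into the endoplasmic reticulum by a transporter and loaded there onto a heavy chain paired with β2-microglobulin. Interferon γ raises nearly all of these genes and swaps the catalytic subunits of the proteasome for inducible ones, which makes the immunoproteasome. Resting cardiac muscle cells are known for low class I levels, and endothelial cells and leukocytes for higher ones. In RNA from whole tissue, fewer cells of a type and less RNA per cell cannot be told apart.

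The values are FPKM, fragments per length of transcript and per mapped total, so levels can be compared between genes. Read counts were not used here, and the depth behind a value is unknown. Markers of heart muscle were abundant: the summed level of 10 cardiomyocyte markers ran from 45430 to 52980 FPKM over the libraries. These markers do not tell the apex from other parts of the heart. Libraries stood apart in ways that touch these genes. Control library 1 had the highest level of 10 of the 10 genes, and lidocaine library 3 the second highest of 8 of them. Markers of other tissues stood highest in control library 3 (Mylpf, skeletal muscle), isoproterenol library 3 (Myl7, atrium), amiodarone library 2 (Sftpc, lung) and propranolol library 1 (Alb, liver). Values without these 4 libraries, and without control 1 and lidocaine 3, are given beside the counts and calls they change.

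B2m encodes β2-microglobulin, the light chain that every class I molecule needs to reach the surface, and it was the most abundant of the 10 genes in every group mean. It stood at 839, 404 and 400 FPKM in the 3 control libraries. With isoproterenol the libraries were at 105, 129 and 90.0 FPKM, and with metoprolol at 115, 198 and 146 FPKM. All 6 lay below the lowest control. With amiodarone B2m was at 137, 136 and 232 FPKM, with propranolol at 100.2, 291 and 150 FPKM, and with ivabradine at 147, 114 and 229 FPKM. With lidocaine it was at 137, 116 and 631 FPKM, and the third library was the only one of 18 drug libraries above the lowest control. The log2 difference from control, on the log2(FPKM + 1) scale, was -2.26 ± 0.50 (SE) with isoproterenol and -1.25 ± 0.50 with lidocaine, and between these with the other 4 drugs. Without control library 1 the differences shrank to -1.90 ± 0.54 with isoproterenol and -0.90 ± 0.54 with lidocaine. The lidocaine value became -1.67 ± 0.39 when lidocaine library 3 was left out as well.

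H2-K1 and H2-D1 are the classical heavy chains, which hold the peptide. H2-K1 stood at 569, 199 and 205 FPKM in the controls and at 38.6, 61.8 and 42.4 FPKM with isoproterenol, a ratio of group means of 6.82. Its 2 highest libraries were control 1 and lidocaine 3 (520 FPKM), and the other lidocaine libraries were at 58.2 and 53.8 FPKM. H2-D1 ran in parallel but over a smaller range. It stood at 509, 245 and 263 FPKM in the controls, and at 78.6, 101 and 73.9 FPKM with isoproterenol, with a ratio of group means of 4.01. Highest over lowest library was 14.8 for H2-K1 and 6.88 for H2-D1. As a share of H2-D1, H2-K1 therefore moved from 49.1% in isoproterenol library 1 to 125% in lidocaine library 3, and its group mean was 90.4% ± 18.7 (SD, n = 3) in controls and 55.8% ± 6.15 with isoproterenol. The 2 genes are close copies, the counting method is not given in the sources used here, and ICR mice may carry other alleles than the reference, so reads could have been split between them in ways that these values cannot show.

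H2-Q7 encodes a Qa-2 chain, a class I-like molecule outside the classical pair. It stood at 33.4, 12.8 and 8.95 FPKM in the controls, at 1.75, 1.42 and 1.38 FPKM with isoproterenol and at 24.5 FPKM in lidocaine library 3. Its difference of -2.74 ± 0.62 log2 with isoproterenol was the lowest of the 60 differences of these 10 genes from control. H2-Q6, H2-Q8 and H2-Q9 are near-identical copies beside it, listed at 0 in 4, 3 and 9 of 21 libraries, so the assignment of reads within this family is uncertain. The 4 copies are therefore also summed, though the sum too may depend on how reads were assigned and on the lengths of the copies. The sum was 104, 31.9 and 38.9 FPKM in the controls, 2.32, 6.85 and 2.07 FPKM with isoproterenol, and 6.11, 6.10 and 77.2 FPKM with lidocaine. The same pair of libraries was on top, and every other drug library lay below the lowest control, at 19.2 FPKM or less.

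**Figure D1:**
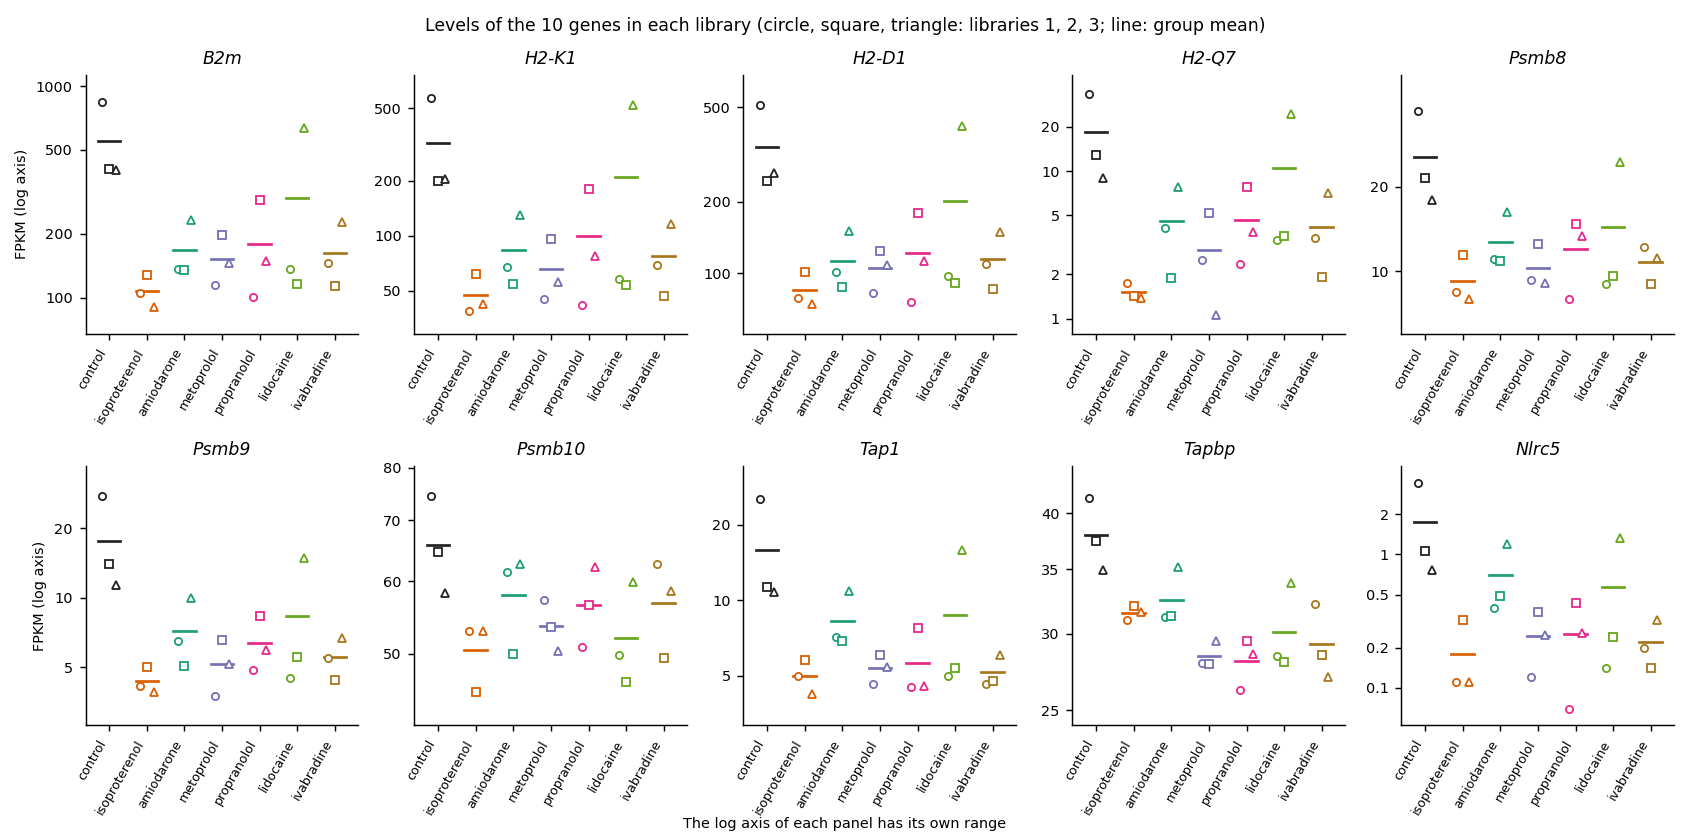
FPKM of each of the 10 genes (log axis, a range of its own in each panel) in the 3 libraries of each group, with a line at the group mean. Control library 1 (circle) is highest in every panel, lidocaine library 3 (triangle) stands far above the other lidocaine libraries in 8 of the panels, and Psmb10 and Tapbp span the smallest ranges (highest over lowest library 1.64 and 1.58).

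B2m and the 3 heavy chains share a stretch just before their start, printed here because 4 of the 10 genes carry it. Promoter windows of 250 bases before to 50 after the start were taken from RefSeq on GRCm38.p6, the C57BL/6J reference and not the ICR sequence. Windows were found for 9 of the 10 genes, Nlrc5 being the other. In each line below the capitals mark TGACG, the core of a cAMP response element, followed 20 bases later (19 in H2-Q7) by ATTGG, which is CCAAT read on the other strand. The lines hold chr2:122147599-122147643 (plus strand) for B2m, chr17:34000354-34000398 (minus) for H2-K1, chr17:35262983-35263027 (plus) for H2-D1, chr17:35439081-35439124 (plus) for H2-Q7 and chr17:37270178-37270222 (plus) for H2-M3, a class I-like gene outside the 10.
B2m: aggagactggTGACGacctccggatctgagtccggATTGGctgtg
H2-K1: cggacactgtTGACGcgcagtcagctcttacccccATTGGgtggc
H2-D1: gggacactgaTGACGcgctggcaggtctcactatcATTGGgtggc
H2-Q7: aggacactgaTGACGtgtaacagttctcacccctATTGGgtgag
H2-M3: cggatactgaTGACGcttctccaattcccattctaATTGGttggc
This pair at a distance of 19 or 20 bases, on either strand, was in 43 of 32851 windows (0.131%) and in 4 of the 9 genes with a window, B2m and the 3 heavy chains. Psmb8 and Psmb9, which lack it, followed B2m over the libraries more closely than H2-Q7 did (r = 0.957 and 0.963 beside 0.946). Of 8 tested class I-like genes outside the 10 with a window only H2-M3 carried the pair, and H2-Q4, the gene most like the mean of the 10, and H2-T23 did not. The spacing was chosen after these sequences were read. Alone, TGACG was in 20.8% of windows and CCAAT in 37.4%, each on either strand and each counted also where it lies inside the pair. Such matches describe letters and show no binding.

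B2m also holds GAAA followed after any 2 bases by GAAA, the core of the interferon-stimulated response element, 139 bases before its start. It was in 3.44% of windows, and of the 9 genes with a window B2m alone had it. It lies in chr2:122147537-122147596 (plus strand), printed here with the match in capitals.
B2m: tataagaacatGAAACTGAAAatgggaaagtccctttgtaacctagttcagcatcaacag

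Psmb8, Psmb9 and Psmb10 encode the inducible catalytic subunits of the immunoproteasome, which replace Psmb5, Psmb6 and Psmb7 in that order. Psmb8 stood at 37.4, 21.5 and 17.9 FPKM in the controls and at 8.40, 11.4 and 7.96 FPKM with isoproterenol. Psmb9 stood at 27.7, 14.1 and 11.3 FPKM in the controls and at 4.16, 5.02 and 3.88 FPKM with isoproterenol. For both genes, lidocaine library 3 (24.6 and 14.9 FPKM) was the only drug library above the lowest control. Psmb10 had another level and another range. It stood at 74.4, 64.7 and 58.2 FPKM in the controls and at 53.0, 45.4 and 53.0 FPKM with isoproterenol, and 6 of the 18 drug libraries lay above its lowest control. The log2 differences with isoproterenol were -1.71 ± 0.34 for Psmb9, -1.32 ± 0.31 for Psmb8 and -0.37 ± 0.12 for Psmb10.

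The constitutive counterparts stood at far higher levels and in a narrow range, 135 to 170 FPKM for Psmb5, 129 to 167 FPKM for Psmb6 and 169 to 205 FPKM for Psmb7. The inducible subunit was thus the smaller part of each pair. Psmb8 was at 15.3% ± 5.94 (SD, n = 3) of Psmb5 in controls, with libraries from 10.9% to 22.1%, and at 5.89% ± 1.05 with isoproterenol. Psmb9 was at 10.95% ± 5.78 of Psmb6 in controls and 3.06% ± 0.394 with isoproterenol. Across the other 5 drugs the mean shares ran from 6.92% (ivabradine) to 9.73% (lidocaine) for Psmb8 and from 3.68% (ivabradine) to 6.01% (lidocaine) for Psmb9. Lidocaine library 3, at 16.8% and 10.97%, lay inside the control range for both. Psmb10 was at 34.4% ± 3.48 of Psmb7 in controls and at 27.2% ± 2.71 with isoproterenol, and the control range of 31.7% to 38.3% was entered by libraries of every group of drugs but isoproterenol and metoprolol.

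**Figure D2:**
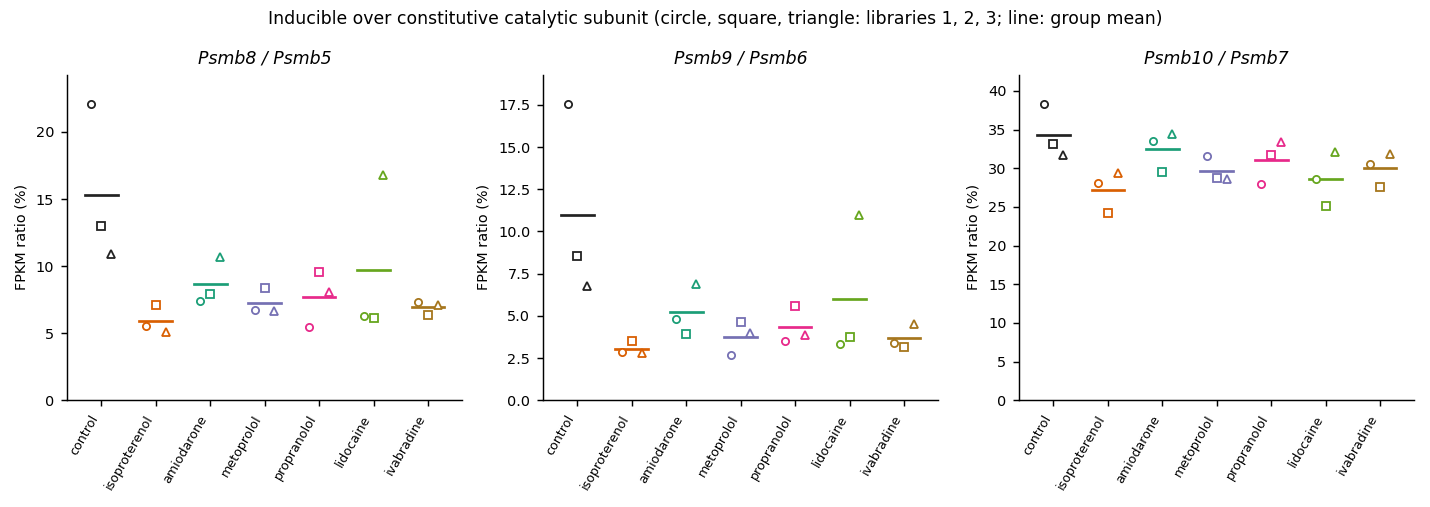
FPKM of the inducible subunit as a percentage of its constitutive counterpart in each library (linear axis from 0), with a line at the group mean. Psmb8/Psmb5 and Psmb9/Psmb6 show control library 1 on top (22.1% and 17.5%) and lidocaine library 3 within the controls, while Psmb10/Psmb7 stays between 24.2% and 38.3%.

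Tap1 encodes a chain of the peptide transporter. Tap1 and Psmb9 start back to back, with 225 bases between their starts. That stretch, chr17:34187331-34187555, is printed on the plus strand, in the direction of Tap1, because it lies before both genes. Capitals mark CCAAT and TGACG, each present on this strand.
Tap1 and Psmb9: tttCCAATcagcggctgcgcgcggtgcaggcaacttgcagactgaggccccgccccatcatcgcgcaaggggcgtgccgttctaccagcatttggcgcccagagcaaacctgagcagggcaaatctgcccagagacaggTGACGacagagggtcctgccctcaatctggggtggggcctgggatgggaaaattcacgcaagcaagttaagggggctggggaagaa
Tap1 stood at 25.5, 11.3 and 10.8 FPKM in the controls and at 5.00, 5.81 and 4.24 FPKM with isoproterenol, and its 3 highest libraries were control 1, lidocaine 3 and control 2, as for Psmb9. Lidocaine library 3 (15.9 FPKM) and amiodarone library 3 (10.9 FPKM) were above the lowest Tap1 control. Psmb8, the neighbouring subunit gene, holds TTCNNNGAA, the palindrome bound by STAT factors (8.30% of windows), in chr17:34198075-34198134 (plus strand).
Psmb8: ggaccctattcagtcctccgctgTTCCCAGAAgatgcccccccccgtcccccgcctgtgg

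Tapbp encodes tapasin, which bridges the transporter to the heavy chain, and it varied least of the 10. It stood at 41.5, 37.5 and 35.0 FPKM in the controls, and the drug libraries ran from 26.2 FPKM (propranolol 1) to 35.2 FPKM (amiodarone 3), which was the only one above the lowest control. Its differences were small, from -0.21 ± 0.08 log2 with amiodarone to -0.42 ± 0.08 with propranolol, but the standard error was small too. After rescaling of the libraries by the median of gene ratios its difference with isoproterenol was -0.14 in place of -0.26.

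Nlrc5 encodes the transactivator of the class I promoters. It was near the limit of what the table can show, at 3.42, 1.07 and 0.77 FPKM in the controls and from 0.07 to 1.34 FPKM in the drug libraries. It reached 1 FPKM in control 1, control 2, amiodarone 3 and lidocaine 3, and it passed the filter (1 FPKM in 3 libraries) through these, so its difference was bound up with the filter. The isoproterenol difference of -1.10 ± 0.28 on the log2(FPKM + 1) scale was -2.53 with a pseudocount of 0.1. All of the 10 genes passed the filter.

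Counted over the set, 10 of 10 genes lay lower with isoproterenol, 9 with metoprolol and with ivabradine, 7 with amiodarone and with propranolol, and 6 with lidocaine, at an adjusted p below 0.05 in the limma fit. These counts are a description, since the same contrasts stood behind the choice of the genes. The background, the share of all 12433 tested genes called lower, was 25.8% with isoproterenol, 20.6% with amiodarone, 22.0% with metoprolol, 19.8% with propranolol, 26.6% with lidocaine and 19.1% with ivabradine. All 10 differences were below 0 with each drug, as deposited and after rescaling of the libraries. The median of the 10 was -1.55 log2 with isoproterenol, -1.02 with amiodarone, -1.42 with metoprolol, -1.27 with propranolol, -0.96 with lidocaine and -1.39 with ivabradine. The median of all tested genes lay between -0.095 and -0.075, and rescaling brought it to between -0.006 and 0.010. Rescaling also turned the balance of all calls, from 24.5% of them higher with isoproterenol to 59.1%, with similar shifts for the other drugs (26.1% to 30.2% higher as deposited, 59.7% to 64.4% rescaled). Counts of the 10 genes after rescaling were 8 with isoproterenol, 9 with metoprolol, 8 with ivabradine, 7 with propranolol, 3 with amiodarone and 2 with lidocaine, beside 8.31% to 12.8% of all tested genes. Without control library 1 they were 8, 5, 3, 2, 0 and 1 in that order, beside 18.5% to 25.4% of all tested genes, with median differences from -0.55 (lidocaine) to -1.19 (isoproterenol). Without control 1 and lidocaine 3 together they were 7, 8, 7, 6, 5 and 8 of the 9 genes tested (Nlrc5 was below the filter), beside 18.1% to 23.7% of all tested genes. The 4 libraries with markers of other tissues left 10, 10, 8, 3, 0 and 5 when taken out, beside 5.99% to 19.8% of all tested genes.

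Complete separation, with all 3 drug libraries below all 3 controls, was seen for 10 of the 10 genes with isoproterenol and metoprolol, 9 with propranolol and ivabradine, 6 with amiodarone and 1 (Tapbp) with lidocaine. The background for this was 32.8% of tested genes with isoproterenol, 31.8% with metoprolol, 31.2% with propranolol, 25.8% with ivabradine, 30.6% with amiodarone and 33.3% with lidocaine. Psmb10 overlapped the controls with 4 drugs. With amiodarone the overlap came from Psmb10, Tap1, Tapbp and Nlrc5. Of the 18 drug libraries, 12 were never above the lowest control in any of the 10 genes.

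**Figure D3:**
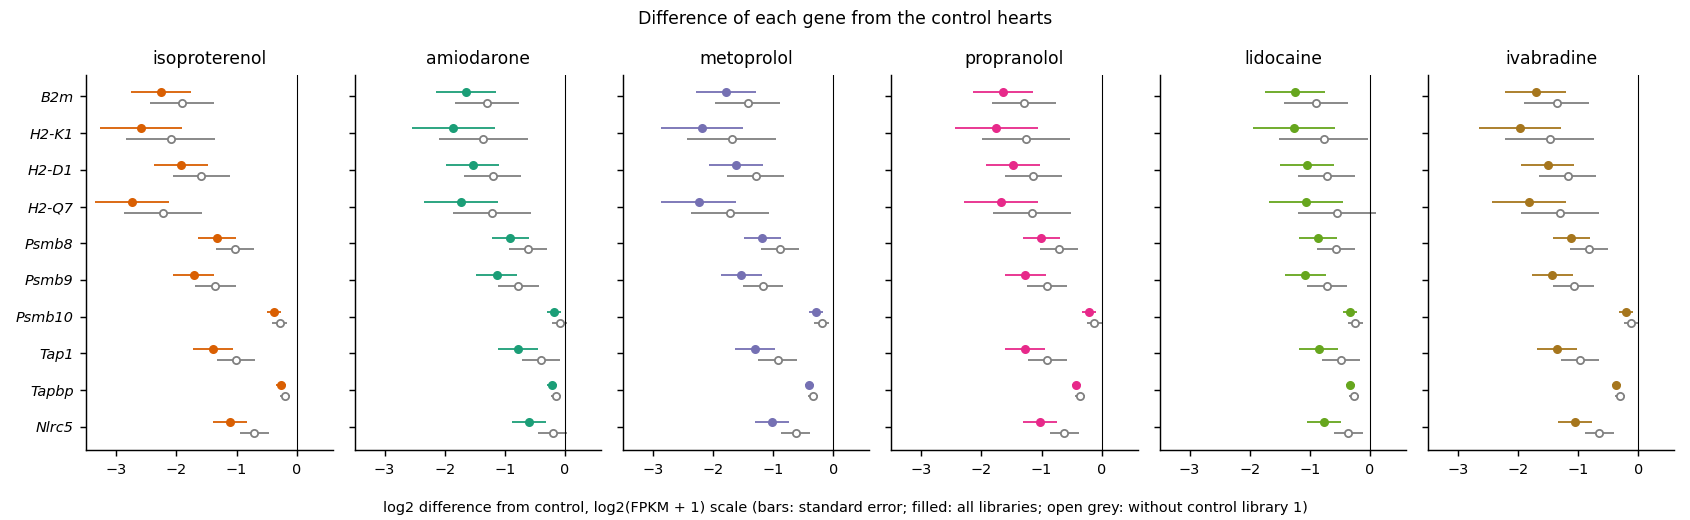
Difference of each gene from control in log2(FPKM + 1), by drug, with standard errors from the limma fit. Filled points use all libraries and open grey points leave out control library 1. All points lie below 0. H2-K1 is farthest or second farthest and Psmb10 and Tapbp are nearest with each drug when all libraries are used.

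The mean of the 10 genes per library, in log2(FPKM + 1), summarises the same picture. It was 5.50 ± 0.575 (SD, n = 3) in the controls, 3.93 ± 0.141 with isoproterenol, 4.14 ± 0.259 with metoprolol, 4.25 ± 0.300 with ivabradine, 4.32 ± 0.457 with propranolol, 4.44 ± 0.386 with amiodarone and 4.62 ± 0.916 with lidocaine. Neighbours in this order, the controls and lidocaine included, differed by less than the larger of their SDs. The spread itself differed between groups, and it was smallest with isoproterenol, whose libraries lay between 3.82 and 4.09, and largest with lidocaine, at 4.08, 4.09 and 5.67. The controls lay at 6.16, 5.24 and 5.10.

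**Figure D4:**
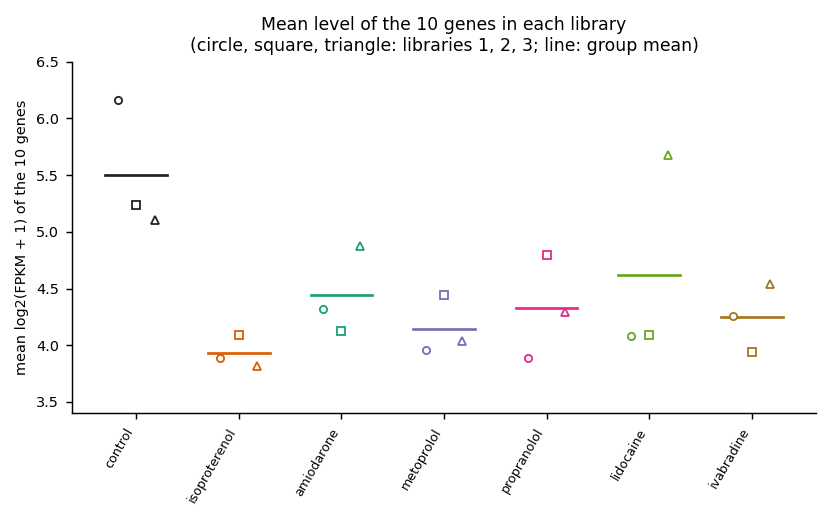
Mean log2(FPKM + 1) of the 10 genes in each library, with a line at the group mean (the axis starts at 3.4, not at 0). The controls (5.10 to 6.16) lie above 17 of the 18 drug libraries, and lidocaine library 3 (5.67) lies between control 1 and control 2.

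Among themselves the genes formed a graded series. Over the 21 libraries, which share group and control structure, Pearson's r with B2m was 0.994 for H2-D1 and 0.989 for H2-K1, 0.963 for Psmb9, 0.957 for Psmb8, 0.946 for H2-Q7, 0.934 for Tap1, 0.896 for Nlrc5, 0.707 for Tapbp and 0.686 for Psmb10. Spearman's rho ran from 0.987 (H2-D1) to 0.505 (Tapbp). Without control 1 and lidocaine 3, r ran from 0.990 (H2-D1) to 0.530 (Tapbp). On deviations from the group means, r was 0.992 for both classical heavy chains and 0.568 for Psmb10, so the genes also moved together between libraries of a group. The extent of the movement differed by gene. Control library 1 over the mean of the other controls was 3.72 for Nlrc5, 3.07 for H2-Q7, 2.81 for H2-K1, 2.09 for B2m, 1.21 for Psmb10 and 1.15 for Tapbp. Lidocaine library 3 over the mean of the other lidocaine libraries was 9.28 for H2-K1, 5.00 for B2m and 1.20 for Tapbp.

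Outside the 10, the genes most like their mean over the 21 libraries were H2-Q4 (r = 0.990), H2-T22 (0.980), H2-M3 (0.942), Igtp (0.932), H2-Q8, H2-Q6, Tgtp2, Bst2, Cxcl9 and Gbp6 (0.915). On deviations from the group means they were H2-Q4 (0.981), H2-T22, Uba7, Irf7, Parp10, Igtp, Gbp6, Tgtp2, Ifi27 and Irgm1 (0.908). Igtp, Tgtp2 and Irgm1 encode GTPases induced by interferon γ, and Cxcl9 a chemokine induced by it. Among single genes, those most like Tap1 were Igtp and Tgtp2 (0.976 and 0.975), and those most like Nlrc5 were the same pair. Psmb10 was most like Eif3h (0.867), a translation factor subunit, and Csrp3 (0.851), a muscle LIM protein. H2-Q4 stood at 129 FPKM in control 1 and 86.3 FPKM in lidocaine 3, beside a mean of 23.7 FPKM with isoproterenol.

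The other genes of the pathway were tested in the limma fit, 109 of 125 listed (120 in the table). With isoproterenol 59 fell and 4 rose, with amiodarone 35 and 5, with metoprolol 51 and 4, with propranolol 37 and 4, with lidocaine 42 and 3, and with ivabradine 40 and 4. Of all tested genes 8.38%, 8.47%, 9.48%, 6.98%, 10.6% and 7.91% were called higher in that order, beside the shares called lower given above. The median difference of these genes was -0.21 log2 with isoproterenol beside -0.09 for all tested genes. After rescaling the counts were 36 and 6, 12 and 10, 25 and 11, 27 and 6, 20 and 13, and 29 and 10. Without control library 1, in which the 10 genes were highest, they were 35 and 3, 16 and 4, 28 and 4, 26 and 4, 32 and 4, and 25 and 4. Without control 1 and lidocaine 3 together they were 45 and 3, 21 and 4, 36 and 4, 33 and 3, 45 and 3, and 32 and 4. Without the 4 libraries high in markers of other tissues they were 26 and 2, 5 and 0, 42 and 3, 16 and 2, 41 and 3, and 32 and 2. The pathway genes tested in these last 3 settings numbered 107, 106 and 108.

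Of 13 tested class I and class I-like genes outside the 10, between 6 (lidocaine) and 11 (ivabradine) fell with a drug, with median differences from -0.55 to -0.80 log2. In the order isoproterenol, amiodarone, metoprolol, propranolol, lidocaine and ivabradine, 9, 9, 10, 10, 6 and 11 fell. The counts were 6, 4, 8, 5, 4 and 4 without control library 1, 8, 8, 9, 8, 9 and 9 without lidocaine 3 as well, 9, 6, 8, 7, 3 and 8 after rescaling, and 5, 1, 7, 2, 4 and 5 without the 4 libraries high in markers of other tissues. H2-T10 is counted as fallen with all 6 drugs, but it reached 1 FPKM only in the controls (1.52, 1.19 and 1.12 FPKM). It passed the filter through the group where it was high, so its fall was bound up with the filter. Where a control library was left out it was below the filter, and fewer than 13 genes were tested. H2-T23, which encodes Qa-1, a ligand of an inhibitory receptor of natural killer cells, fell with all 6 drugs. It stood at 32.1, 26.3 and 23.4 FPKM in the controls and from 11.6 to 21.1 FPKM in the drug libraries, all below the lowest control. Its change was -0.80 ± 0.16 log2 with isoproterenol (adjusted p = 0.0012) and -0.92 ± 0.16 with propranolol (adjusted p = 0.00077), and it stayed past the threshold in 90 of 90 alternative fits. H2-M3, which presents formylated peptides, fell with all 6 drugs as well, by -0.86 ± 0.17 with isoproterenol (adjusted p = 0.00089). Its call was lost without control library 1 with amiodarone, lidocaine and ivabradine (adjusted p = 0.052, 0.076 and 0.065), and without the 4 libraries with amiodarone and propranolol (adjusted p = 0.09 and 0.082). After rescaling the lidocaine call was lost (adjusted p = 0.06). Reads of H2-T23 and of the other H2 genes could also be split between close copies.

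Of 8 loading and trimming genes, 4, 1, 2, 2, 3 and 3 fell in that order of drugs, and 1 rose with metoprolol. After rescaling 2, 1, 2, 2, 1 and 2 fell and 0, 2, 3, 1, 2 and 1 rose. The one that rose as deposited was Uggt1, a glucosyltransferase of glycoprotein folding, at 0.20 ± 0.07 log2 (adjusted p = 0.045), a call lost without control library 1 (adjusted p = 0.15), and it was named after its values were seen. Tap2, the partner chain of Tap1, fell with all 6 drugs, by -0.51 ± 0.15 log2 with isoproterenol (adjusted p = 0.015) and -0.65 ± 0.15 with propranolol (adjusted p = 0.0053). Without control library 1 the isoproterenol, amiodarone and lidocaine calls were lost (adjusted p = 0.087, 0.068 and 0.13), and after rescaling those with isoproterenol and lidocaine (adjusted p = 0.058 and 0.076). Without the 4 libraries those with isoproterenol, amiodarone and propranolol were lost (adjusted p = 0.081, 0.091 and 0.053). Calr, the chaperone calreticulin, fell with isoproterenol by -0.36 ± 0.07 (adjusted p = 0.0011), with lidocaine and with ivabradine, the last 2 calls being lost after rescaling (adjusted p = 0.082 and 0.22) and the ivabradine one also without the 4 libraries (adjusted p = 0.13). Pdia3, the oxidoreductase of the loading complex, fell with isoproterenol by -0.38 ± 0.09 (adjusted p = 0.0031, and 0.062 without the 4 libraries). The trimming peptidase Erap1 was at -0.22 ± 0.10 with isoproterenol (adjusted p = 0.088), and it passed with none of the 6 drugs.

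Named genes of the rest of the proteasome changed by less than 1 log2 unit, in both directions. Among the constitutive catalytic subunits, Psmb6 fell by -0.20 ± 0.06 log2 with isoproterenol (adjusted p = 0.016, and 0.13 without the 4 libraries) and Psmb5 by -0.24 ± 0.06 with metoprolol (adjusted p = 0.010), and Psmb7 passed with no drug in limma's test, adjusted or at an unadjusted p below 0.05. No call of the 3 held after rescaling. Of 11 other subunits of the 20S core, 8 fell with isoproterenol and none with ivabradine (1 at an unadjusted p below 0.05), and after rescaling none fell with any drug. The isoproterenol count was 3 without control library 1 and 1 without the 4 libraries. Of 21 subunits of the 19S regulator, 4, 1, 4, 0, 1 and 0 fell in the order of drugs used above, and 1, 2, 1, 2, 2 and 3 rose. At an unadjusted p below 0.05 in limma's test, 1 fell with propranolol and 1 with ivabradine. The median differences of the 19S genes ran from -0.080 to 0.014 log2, beside -0.095 to -0.075 for all tested genes. After rescaling 1, 0, 0, 0, 0 and 0 fell and 3, 3, 3, 2, 4 and 5 rose. Psme2, a chain of the PA28 activator that interferon γ raises, fell with 5 of the drugs, by -0.37 ± 0.08 with isoproterenol (adjusted p = 0.0030), of which the propranolol call was lost after rescaling (adjusted p = 0.12) and those with amiodarone and propranolol without the 4 libraries (adjusted p = 0.056 and 0.062). Its partner Psme1 was at -0.01 ± 0.10 with isoproterenol (adjusted p = 0.97). It fell with lidocaine, by -0.29 ± 0.10 (adjusted p = 0.034), a call lost after rescaling (adjusted p = 0.21). Psme4, a further activator of the proteasome named after its values were seen, rose with all 6 drugs. It stood at 12.4, 12.8 and 11.4 FPKM in the controls and from 13.1 to 17.3 FPKM in the drug libraries, with no overlap. Its change ran from 0.23 ± 0.07 log2 with propranolol (adjusted p = 0.03) to 0.40 ± 0.07 with ivabradine (adjusted p = 0.0011), and the calls held after rescaling and without control library 1. Without the 4 libraries those with isoproterenol, amiodarone and propranolol were lost (adjusted p = 0.064, 0.18 and 0.29).

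Class II molecules present peptides from outside the cell and are made mainly by antigen-presenting cells. All 7 class II genes tested fell with isoproterenol, 4 with amiodarone, 4 with metoprolol and 0 with propranolol, lidocaine or ivabradine in limma's test, where 3, 4 and 3 passed at an unadjusted p below 0.05. Without control library 1 the counts with the first 3 drugs were 5, 2 and 0, and without lidocaine 3 as well 6, 2 and 2. After rescaling they were 7, 1 and 2, and without the 4 libraries 4, 1 and 3. With propranolol, lidocaine and ivabradine the counts were 1, 1 and 0 without control library 1. Without lidocaine 3 as well they were 1, 3 and 0, after rescaling 0, 0 and 0, and without the 4 libraries 0, 1 and 1. H2-Aa fell by -1.72 ± 0.43 log2 with isoproterenol (adjusted p = 0.0058) and Cd74, the invariant chain, by -1.78 ± 0.49 (adjusted p = 0.0091). H2-Ab1 fell by -1.58 ± 0.46 (adjusted p = 0.013), a call lost without control library 1 (adjusted p = 0.062). Whether the drugs differ from each other was not tested. Cd74 stood at 54.6, 26.2 and 25.8 FPKM in the controls, and above the lowest control in propranolol 2 (36.4 FPKM), lidocaine 3 (40.6 FPKM) and ivabradine 1 (27.3 FPKM). Ciita, the class II counterpart of Nlrc5, averaged 0.30 FPKM in the controls and was not tested.

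Irf1, the interferon-induced factor that acts on the promoters of this pathway, fell with all 6 drugs. It stood at 23.98, 16.9 and 16.8 FPKM in the controls and from 7.82 to 15.2 FPKM in the drug libraries, with no overlap. The change was -0.93 ± 0.14 log2 with isoproterenol (adjusted p = 0.00012), -0.65 ± 0.14 with amiodarone (adjusted p = 0.0032) and -1.10 ± 0.14 with ivabradine (adjusted p = 4.9e-05), and the call held in 90 of 90 alternative fits. Irf1 did not follow the 10 genes in lidocaine library 3, where it stood at 10.3 FPKM beside 9.88 and 10.01 FPKM in the other lidocaine libraries. Socs1, the inhibitor of the interferon γ receptor, fell with all 6 drugs too, from 4.10, 4.26 and 3.67 FPKM in the controls to between 1.48 and 2.56 FPKM. Its change was -0.71 ± 0.12 log2 with isoproterenol (adjusted p = 0.00044) and -0.87 ± 0.12 with lidocaine (adjusted p = 7.9e-05), and it held in 84 of 84 alternative fits. Its lowest library was lidocaine 3.

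Ifngr2, a chain of the interferon γ receptor, rose with isoproterenol by 0.26 ± 0.04 log2 (adjusted p = 0.00032), with amiodarone, with metoprolol and with propranolol, the amiodarone call being lost without the 4 libraries (adjusted p = 0.082), and was at 0.10 ± 0.04 with lidocaine (adjusted p = 0.071). Ifngr1, the other chain, lay the other way and was named after its values were seen. It stood at 27.55, 32.55 and 29.83 FPKM in the controls and from 22.21 to 27.23 FPKM in the drug libraries, all below the lowest control. Irf8, a factor of macrophages and dendritic cells, stood at 10.85, 9.06 and 10.29 FPKM in the controls and at 7.25, 7.76 and 6.53 FPKM with isoproterenol, with no overlap between these groups. It fell with isoproterenol by -0.44 ± 0.11 log2 (adjusted p = 0.0073), a call lost without the 4 libraries high in markers of other tissues (adjusted p = 0.12). Ifng itself was listed at 0 in 20 of the 21 libraries and at 0.14 FPKM in control 1.

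Of 19 interferon-stimulated genes tested, 14 fell with isoproterenol, 13 with metoprolol, 13 with propranolol, 10 with lidocaine, 14 with ivabradine and 2 with amiodarone. After rescaling these counts were 9, 7, 11, 6, 12 and 0. Without control library 1 they were 4, 2, 7, 5, 7 and 0, without control 1 and lidocaine 3 together 9, 7, 10, 14, 12 and 0, and without the 4 libraries 7, 12, 7, 10, 13 and 0. Oas2, which senses double-stranded RNA, fell by -0.83 ± 0.12 log2 with isoproterenol (adjusted p = 0.00012), and Stat2, of the type I interferon pathway, by -0.55 ± 0.12 (adjusted p = 0.0021). Oas2 reached 1 FPKM only in the controls (1.41, 1.84 and 1.24 FPKM) and in amiodarone library 3 (1.40 FPKM). It passed the filter through these, so its fall and its p-values were bound up with the filter. Both fell with every drug except amiodarone (adjusted p = 0.071 for Oas2 and 0.084 for Stat2). The Stat2 calls held in 75 of 75 alternative fits. Those of Oas2 held in the 70 that tested it, since it was below the 5 FPKM filter.

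The 10 factors that bind class I promoters were counted in the order isoproterenol, amiodarone, metoprolol, propranolol, lidocaine and ivabradine. Of them 2, 6, 5, 4, 6 and 6 fell. After rescaling 1, 0, 1, 4, 3 and 4 fell and 0, 1, 1, 0, 2 and 1 rose. Without control library 1 the falls numbered 1, 1, 3, 4, 5 and 6, and without the 4 libraries 0, 0, 5, 4, 6 and 6. Creb1, which binds TGACG, fell with all 6 drugs, by -0.30 ± 0.08 log2 with isoproterenol (adjusted p = 0.0061). Its amiodarone call was lost after rescaling (adjusted p = 0.071), and those with isoproterenol and amiodarone without the 4 libraries (adjusted p = 0.086 and 0.083). Rfx5, which binds the X box of these promoters, was at -0.06 ± 0.07 with isoproterenol (adjusted p = 0.53), and fell with the other 5, by -0.42 ± 0.07 with propranolol (adjusted p = 0.00048). The Rfx5 calls with amiodarone, metoprolol and lidocaine were lost after rescaling (adjusted p = 0.089, 0.096 and 0.069), and that with amiodarone also without the 4 libraries (adjusted p = 0.081).

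**Figure D5:**
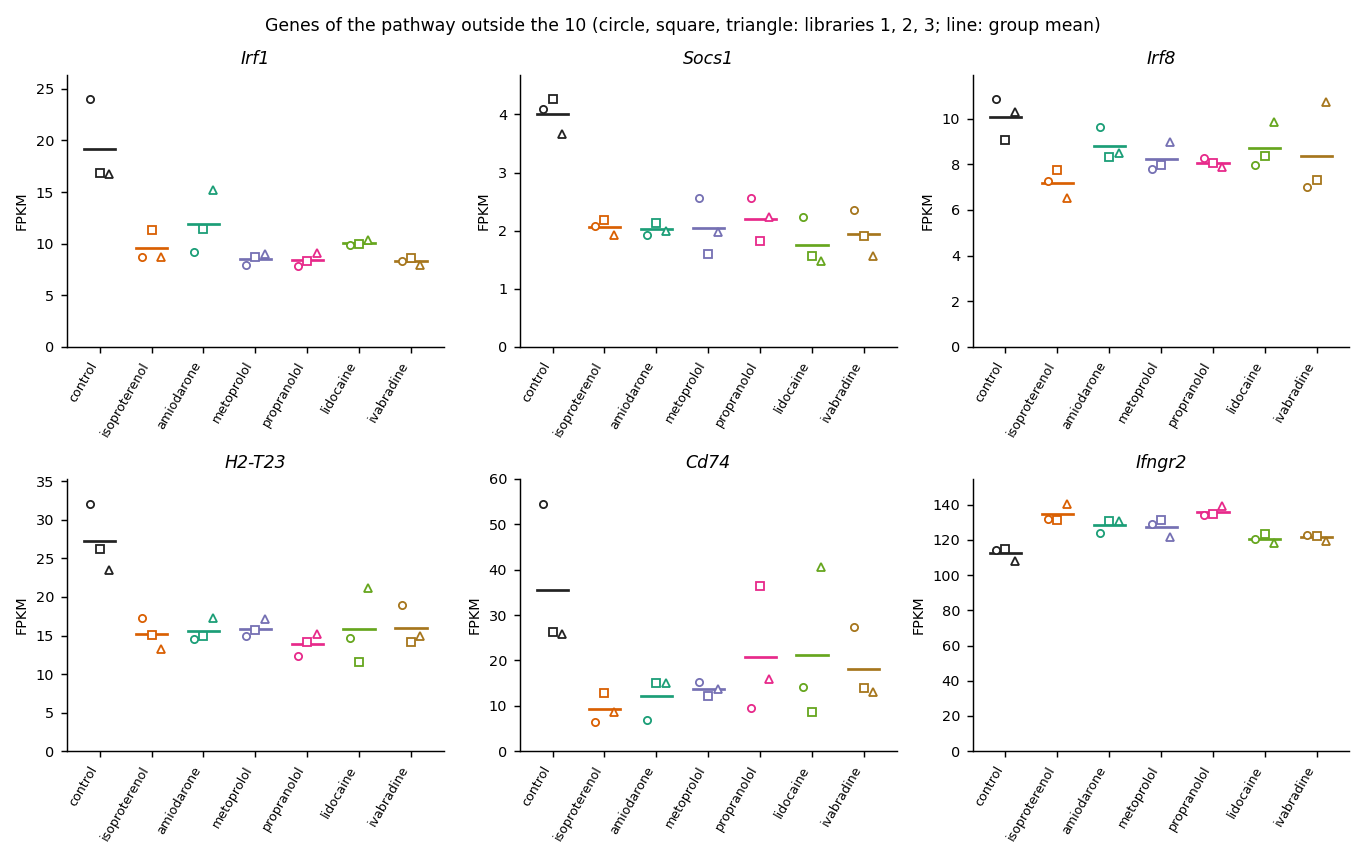
FPKM of 6 tested genes of the pathway in each library (linear axes from 0), with a line at the group mean. Irf1, Socs1 and H2-T23 separate the controls from all drug libraries, Ifngr2 lies at 108 to 115 FPKM in the controls and higher in all drug libraries, and Irf8 and Cd74 are highest in control library 1 and overlap between controls and drug libraries.

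Markers of cells that carry much class I were measured in the same libraries. The summed level of 13 macrophage markers ran from 330 to 758 FPKM in the controls and from 124 to 251 FPKM with isoproterenol, and in control 1 it was the lowest of the controls. Lyz2, a macrophage lysozyme and a large part of this sum, was at 91.8 FPKM in control 1 and at 276 and 405 FPKM in the other controls. Every macrophage marker but Aif1 was lowest of the controls in control 1, by unlike margins. Csf1r was at 17.2 beside 20.8 and 21.1 FPKM, and Cx3cr1 at 7.15 beside 7.77 and 7.34 FPKM. Aif1 was highest in control 1, at 5.18 beside 4.97 and 3.84 FPKM. In lidocaine 3 the macrophage sum was 301 FPKM, inside the 185 to 390 FPKM of the lidocaine libraries. T cell markers summed to 5.19 FPKM in control 1, 2.30 to 5.19 FPKM over the controls and 1.42 to 2.94 FPKM over the drug libraries, with the highest of these in lidocaine 3. Natural killer cell markers summed to 5.21 FPKM in control 1, 1.85 FPKM in lidocaine 3 and 0.19 to 1.14 FPKM in the other drug libraries, and Gzma, a granzyme, stood at 2.08 FPKM in control 1 and 0.52 FPKM in lidocaine 3. None of the 9 T cell and 7 natural killer cell markers reached 1 FPKM in 3 libraries. Dendritic cell markers summed to 8.53 FPKM in control 1, 8.53 to 16.35 FPKM over the controls and 7.25 FPKM in lidocaine 3. Over the drug libraries they ran from 6.10 to 14.2 FPKM. B cell markers summed to 3.69 FPKM in control 1 and 2.67 to 3.69 FPKM over the controls. They ran from 1.93 to 6.25 FPKM over the drug libraries, with 6.01 FPKM in lidocaine 3. Neutrophil markers summed to 23.9 FPKM in control 1, 23.5 to 141 FPKM over the controls and 30.9 FPKM in lidocaine 3. The sum of 9 endothelial markers was highest in control 1, at 761 FPKM, beside 588 to 727 FPKM in the drug libraries. Over the controls it ran from 678 to 761 FPKM. Control 3 was above control 1 in some of these markers (Pecam1 at 118 beside 115 FPKM, Cdh5 at 189 beside 186 FPKM). It was below control 1 in others (Egfl7 at 132 beside 144 FPKM). The part of any of these in the levels of the 10 genes was not tested.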

How the data were processed

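RNA of 21 heart apex libraries was sequenced on a BGISEQ-500, per the labels' protocols, after oligo dT selection or rRNA depletion (which of them is not said). The authors deposited 1 table of FPKM values for 18762 genes, with 2 decimals, and every value column was matched to a library by its title. Build mm9 of the mouse genome and the aligners HISAT and Bowtie2 2.2.5 stand in the submitters' processing notes. How fragments were counted, on which annotation and with which filters is not given in the sources used here. FPKM are not counts, so no counting error could be given, and the number of libraries limits the precision.

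From these values log2(FPKM + 1) was computed. The 12433 genes that reached 1 FPKM in 3 or more libraries entered 1 limma fit (limma 3.58.1, R 4.3.3) with a mean per group, 14 residual degrees of freedom, a variance trend and Benjamini-Hochberg adjustment at 0.05 within each comparison of a drug with the control. The fit was tested on simulated data. The 10 genes and the lists of other pathway genes and cell markers were chosen with earlier results of these data known. From each pathway list, the genes considered for naming were the 3 of smallest p with isoproterenol and a fixed set that included Psmb5, Psmb6, Psmb7, Tap2, H2-T23 and Irf1. Socs1, Stat2, Oas2, Creb1, Ifngr2 and Irf8 came in by either way. The report gives a part of these, and 1 gene of the fixed set is not reported here and was left out of the pathway counts. Likeness is Pearson's r on log2(FPKM + 1), over tested genes that are not bare locus names. Promoter windows came from RefSeq (GRCm38.p6) and were searched on both strands.

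The fits were repeated with a pseudocount of 0.1, without the filter or with 5 FPKM in its place, after median-of-ratios rescaling, on the compared groups alone, without the variance trend, with the title number as a replicate block and without each library in turn. Leaving out the 4 libraries with markers of other tissues, or control 1 and lidocaine 3 together, was chosen after seeing the data. Libraries of the same title number showed no common deviation in the median pair (63 pairs, residual r from -0.54 to 0.29, median -0.03). These deviations were taken from means of only 3 libraries, and tissue carried into single libraries could hide a pairing. The values therefore cannot decide if equal numbers share a litter, day or batch, and pairing by number remains unknown.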

Additional observations from a re-analysis of the deposited data

How the results depend on the processing

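The mean difference of the 10 genes from control kept its sign and moved by less than the SD between libraries in all alternatives run. Leaving out 1 library at a time gave -1.77 to -1.24 with isoproterenol, -1.28 to -0.73 with amiodarone, -1.56 to -1.03 with metoprolol, -1.41 to -0.85 with propranolol, -1.41 to -0.56 with lidocaine and -1.45 to -0.92 with ivabradine. Of the 60 single differences none reversed, and those moved by more than the SD were Nlrc5 with 5 drugs at a pseudocount of 0.1 and Tapbp with isoproterenol after rescaling.

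Calls over all genes numbered 4254 with isoproterenol, 3608 with amiodarone, 3910 with metoprolol, 3332 with propranolol, 4615 with lidocaine and 3358 with ivabradine. Leaving out 1 library at a time gave 2778 to 4173, 2038 to 3422, 2388 to 3674, 2000 to 3226, 3246 to 4381 and 2217 to 3827. Without the 4 libraries high in markers of other tissues there were 1940 calls with isoproterenol, 1117 with amiodarone, 1355 with propranolol and 2229 with ivabradine. With the groups compared alone, ivabradine had 1616.

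Pathway genes called numbered 63, 40, 55, 41, 45 and 44 in the same order. Leaving out 1 library at a time gave 38 to 61, 13 to 45, 30 to 50, 28 to 39, 34 to 61 and 27 to 46. The counts moved by over 1.5 times without control 1 (isoproterenol 38, amiodarone 20, metoprolol 32, ivabradine 29), control 2 (amiodarone 22), isoproterenol 3 (39), amiodarone 1 (19), amiodarone 2 (13), metoprolol 1 (30) and ivabradine 2 (27). Rescaling gave 22 with amiodarone and 36 with metoprolol. Without the 4 libraries there were 28 with isoproterenol, 5 with amiodarone and 18 with propranolol, and without control 1 and lidocaine 3 together 25 with amiodarone. With the groups compared alone ivabradine had 28. The cause of these shifts was not tested, beyond the smaller number of libraries.

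With the title number as a replicate block, pathway calls were 60, 32, 48, 40, 44 and 43 and calls over all genes 4125, 3425, 3716, 3153, 4414 and 3219, each within 1.5 times of the fit without it. The mean differences of the 10 genes were the same, which the design fixes in advance, since every group holds each title number once. Nlrc5 had no fitted value without control 1 and lidocaine 3 together, nor at the 5 FPKM filter.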
